A study of Homo sapiens with 45 samples.

Results

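The genes described here are 9 surface antigens of Ewing sarcoma: CD99, STEAP1, STEAP2, IL1RAP, ADGRG2, LINGO1, ADGRA1, PTGER3 and ITM2A. They were listed by name as candidates for diagnosis or targeting, with earlier values of the same libraries in view, and they are 9 of 41578 genes in the deposited tables. Their difference between Ewing sarcoma and osteosarcoma lines therefore chose them and is given as a description, without a test.

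RNA was measured by poly(A) RNA sequencing in 45 libraries of established human cell lines. Ewing sarcoma was represented by 7 lines (TC71, SKES1, RDES, MHHES1, EW24, EW3 and A673) and osteosarcoma by 6 (U2OS, SAOS2, MG63, KHOS, HOS-MNNG and G292), with 3 libraries for each of the 13. HOS-MNNG and KHOS both descend from the line HOS, and all groups are cultured lines, so a line stands for a single tumour at most. The other 6 libraries came from A673 cells that carry sh908, an inducible short hairpin RNA against the potassium channel gene KCNN1, with 3 libraries left without doxycycline (uninduced) and 3 with doxycycline added (induced). Neither a control hairpin nor parental cells with doxycycline were analysed here, and the labels do not say whether the sh908 cells are a clone or a pool. Nothing in the labels ties replicates to separate cultures, so each p-value between A673 groups measures the spread between libraries, which may be technical. Tests between the tumour types used line sums and measure the spread between lines.

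Ewing sarcoma arises in bones and soft tissues of young people, and its driver is a chimeric transcription factor that joins EWSR1 to an ETS protein, mostly FLI1 and sometimes ERG, and recognises GGAA motifs in DNA. Membrane CD99 has long been used to recognise it in the pathology laboratory. Proteins on the cell surface are of interest because antibodies, antibody-drug conjugates and engineered T cells can reach them from outside. The values here are RNA levels and say nothing of the amount of protein on the surface.

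The line identities were checked against markers. NKX2-2, a nuclear marker used in the diagnosis of Ewing sarcoma, had line means of 17.9 to 139 TPM in the Ewing sarcoma lines and at most 5.55 TPM in the osteosarcoma lines (TPM is a transcript level scaled for length and for depth). A list of 8 Ewing sarcoma markers summed to 713 to 1693 TPM in the 7 Ewing sarcoma lines and to 13.3 to 581 TPM in the 6 osteosarcoma lines, and 9 osteoblast markers summed to 13.5 to 330 TPM and 115 to 4345 TPM. Of the fusion partners, FLI1 was at 28.7 TPM or more in all Ewing sarcoma lines except EW3, where it was at 2.08 TPM and ERG was at 34.8 TPM. FLI1 RNA was also measured in KHOS (27.7 TPM) and HOS-MNNG (20.2 TPM). In the Ewing sarcoma lines, endothelial markers summed to at most 1.41 TPM, epithelial markers to at most 4.42 TPM and leukocyte markers to at most 6.01 TPM. In the osteosarcoma lines the same lists reached 6.83, 28.1 and 109 TPM. CD68, a lysosomal protein counted among the leukocyte markers, gave the high values there, at 108 TPM in KHOS, 97.1 TPM in G292 and 89.3 TPM in HOS-MNNG against at most 5.89 TPM in an Ewing sarcoma line. The melanocyte pair PMEL and MLANA summed to 0.358 to 23.5 TPM in the Ewing sarcoma lines and to at most 0.885 TPM in the osteosarcoma lines. PMEL gave the high values, at 23.5 TPM in RDES and 9.84 TPM in EW3, and MLANA was at 0.178 TPM or less in the Ewing sarcoma lines. The part of any of these lists in the results was not tested. Total estimated counts ran from 15974173 to 51413254 per library.

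Across the 7 Ewing sarcoma lines the order of mean levels per length was CD99, ITM2A, STEAP1, PTGER3, LINGO1, IL1RAP, ADGRG2, STEAP2 and ADGRA1, from 943 down to 15.01 TPM. For 7 of the 9 genes every Ewing sarcoma line mean lay above every osteosarcoma line mean, an arrangement found in 3.19% of the 21945 genes tested. The exceptions were CD99 and ADGRG2. Nothing is read from that share, because the genes were chosen on this contrast. EW3 and RDES had all 9 genes at 10 TPM or more and the other 5 Ewing sarcoma lines had 8, whereas the osteosarcoma lines had 1 to 3.

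**Figure D1:**
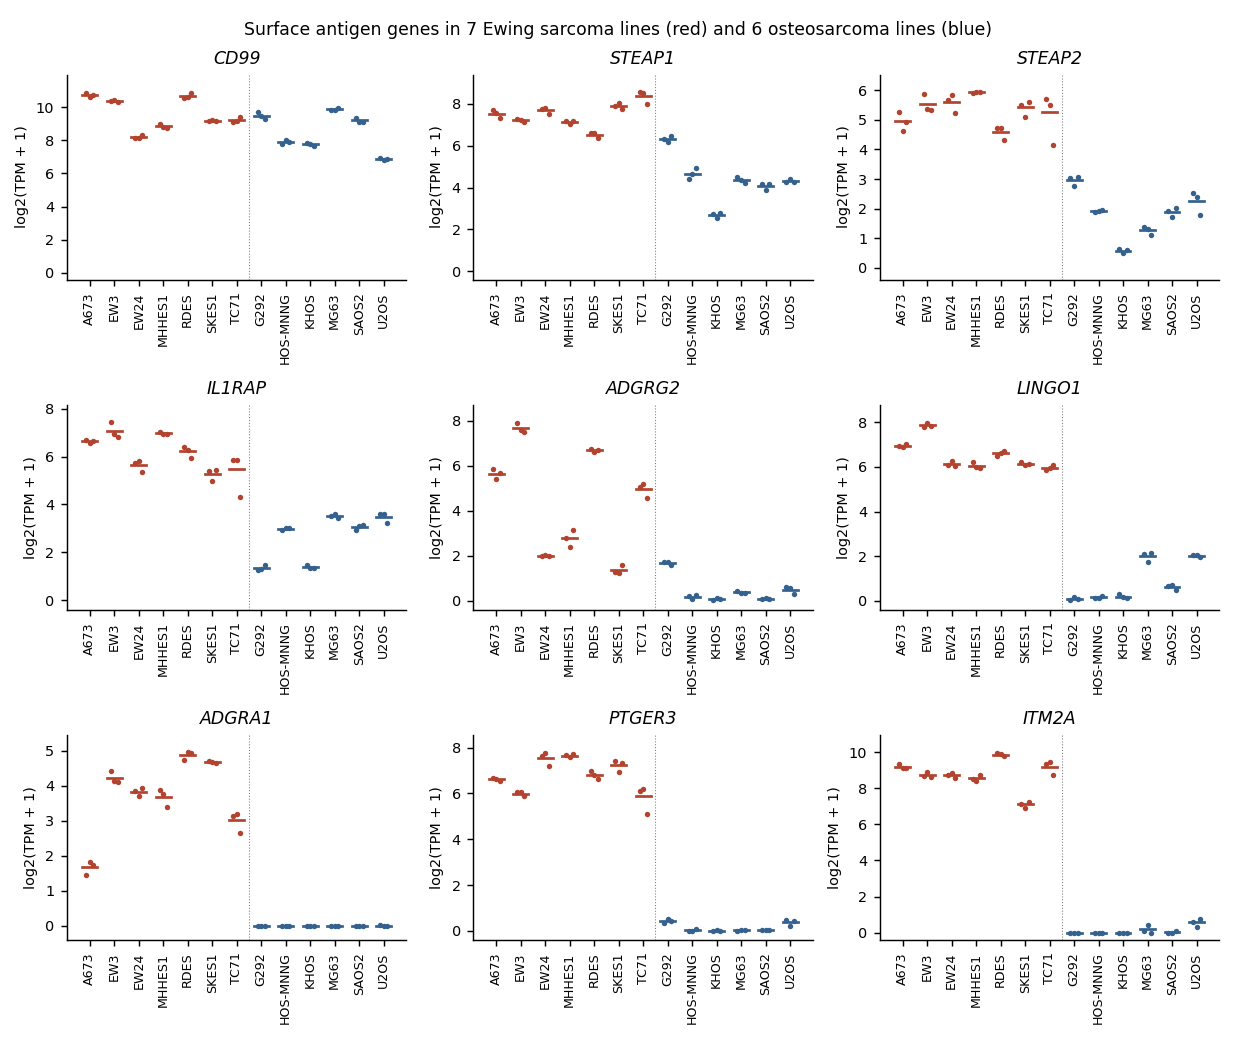
Level of each surface antigen gene, as log2(TPM + 1), in the 3 libraries (points) of 7 Ewing sarcoma lines (red) and 6 osteosarcoma lines (blue), with bars at the log2 of the line mean plus 1. CD99 overlaps widely between the tumour types, ADGRG2 spans a 127-fold range among the Ewing sarcoma lines, and ADGRA1, PTGER3 and ITM2A are at or near 0 in the osteosarcoma lines.

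CD99, a heavily O-glycosylated adhesion protein, is encoded in the pseudoautosomal region shared by the X and Y chromosomes (X, 2691295 to 2741309, GRCh38.p14). Its line means in the Ewing sarcoma lines were 1701 TPM in A673, 1643 TPM in RDES, 1332 TPM in EW3, 594 TPM in TC71, 583 TPM in SKES1, 460 TPM in MHHES1 and 290 TPM in EW24. In the osteosarcoma lines they were 944 TPM in MG63, 719 TPM in G292, 590 TPM in SAOS2, 239 TPM in HOS-MNNG, 217 TPM in KHOS and 116 TPM in U2OS. A673, RDES and EW3 therefore stood above every osteosarcoma line, and the other 4 Ewing sarcoma lines fell within the osteosarcoma range. The libraries of A673 and RDES overlapped, as did those of TC71, SAOS2 and SKES1, so these neighbours did not differ beyond their spread. The means over lines were 943 ± 595 TPM (SD, n = 7) and 471 ± 330 TPM (SD, n = 6), a difference of 1.083 in mean log2(TPM + 1). Among all genes CD99 ranked from 72 in RDES to 470 in EW24 in the Ewing sarcoma lines and from 137 in MG63 to 1377 in U2OS in the osteosarcoma lines. A pseudogene copy of CD99 lies near it, and reads common to both cannot be told apart with certainty by any assignment to transcripts.

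STEAP1 and STEAP2 belong to a family of multi-pass membrane proteins, of which STEAP2 is a metalloreductase of iron and copper and STEAP1 lacks the NADPH-binding part and relies on a partner. The genes are neighbours on chromosome 7, with 46913 bases between the end of STEAP1 (90154469 to 90164827) and the start of STEAP2 (90211740 to 90243408). STEAP1 had line means of 331 TPM in TC71, 240 TPM in SKES1, 206 TPM for EW24, 185 TPM for A673, 148 TPM in EW3, 140 TPM in MHHES1 and 91.1 TPM in RDES. The osteosarcoma lines ran from 5.41 TPM in KHOS to 78.8 TPM in G292, with the other 4 between 15.8 and 24.4 TPM. The gap between the tumour types for STEAP1 rested on a single pair of neighbours, since RDES (80.9, 95.0 and 97.3 TPM) and G292 (71.9, 78.2 and 86.3 TPM) overlapped by library. STEAP1 averaged 192 ± 78.1 TPM (SD, n = 7) against 27.2 ± 26.1 TPM (SD, n = 6), a difference of 3.08 in mean log2(TPM + 1). Its only transcript in the tables, NM_012449.3, carried the whole level, and the close copy STEAP1B, at 0.637 to 50.3 TPM in the Ewing sarcoma lines, makes the split of reads between them uncertain.

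STEAP2 was lower and more even. Its Ewing sarcoma line means ran from 23.3 TPM in RDES to 60.01 TPM in MHHES1 (40.9 ± 12.1 TPM, SD, n = 7), and the osteosarcoma means from 0.484 TPM in KHOS to 6.83 TPM in G292 (3.01 ± 2.20 TPM, SD, n = 6). The lowest Ewing sarcoma mean was 3.41-fold above the highest osteosarcoma mean, and no library of either group crossed. G292 and KHOS were thus the highest and lowest osteosarcoma lines for both STEAP genes. Within the Ewing sarcoma lines RDES was lowest for both, but the remaining lines took different orders, and Pearson's r of log2(TPM + 1) between STEAP1 and STEAP2 was 0.29 over 7 lines. Of 23 STEAP2 transcripts, the leading NM_152999.4 held 22.3 ± 9.85% (SD, n = 7) of the TPM in the Ewing sarcoma lines, so no transcript dominated.

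Promoter windows from RefSeq (GRCh38.p14), each 300 bases from 250 before to 50 after a start site, are shown for ITM2A, whose levels in the tumour types stood far apart, for STEAP1, whose line means were separate but whose libraries overlapped at the edge, and for CD99, whose line means overlapped. Capitals mark GGAA, the core of the ETS binding motif, or TTCC, the same core on the other strand.
STEAP1, chr7:90154219-90154518, plus strand: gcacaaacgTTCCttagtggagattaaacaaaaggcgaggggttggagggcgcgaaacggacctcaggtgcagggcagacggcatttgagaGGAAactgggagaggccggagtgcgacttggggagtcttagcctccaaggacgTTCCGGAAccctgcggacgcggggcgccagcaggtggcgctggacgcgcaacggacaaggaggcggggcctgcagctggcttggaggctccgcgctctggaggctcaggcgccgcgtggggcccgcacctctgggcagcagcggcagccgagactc
ITM2A, chrX:79367285-79367584, minus strand: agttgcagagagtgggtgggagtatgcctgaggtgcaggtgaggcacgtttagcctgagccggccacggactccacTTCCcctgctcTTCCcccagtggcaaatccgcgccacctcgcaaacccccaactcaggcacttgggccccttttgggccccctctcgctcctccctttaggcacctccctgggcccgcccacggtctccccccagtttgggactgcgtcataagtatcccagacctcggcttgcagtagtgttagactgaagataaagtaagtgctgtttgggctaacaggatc
CD99, chrX:2691045-2691344, plus strand: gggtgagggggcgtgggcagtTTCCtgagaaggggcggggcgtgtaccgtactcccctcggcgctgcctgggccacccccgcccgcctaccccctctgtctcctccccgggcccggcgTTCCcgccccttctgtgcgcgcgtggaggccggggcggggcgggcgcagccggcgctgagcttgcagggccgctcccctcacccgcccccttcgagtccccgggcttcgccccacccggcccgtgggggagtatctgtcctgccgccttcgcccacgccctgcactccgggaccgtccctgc

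The STEAP1 window held 4 GGAA matches on either strand, a pair of which directly adjoin, and the ITM2A and CD99 windows held 2 each. Over 35093 RefSeq promoter windows the median was 3 and 95.5% had at least 1, so the number of cores does not set these genes apart. The tandem GGAAGGAA was found in 3.67% of all windows and in 0 of the 18 windows that RefSeq lists for 8 of the 9 genes. TATAAA was found in 11.5% of all windows and in 1 of the 18, the second of 2 STEAP2 windows. A match is a description of letters only, and the windows do not reach distal elements. PTGER3 was not matched.

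IL1RAP, the accessory chain that the receptors for interleukin-1, interleukin-33 and interleukin-36 need for signalling, had line means of 135 TPM in EW3, 124 TPM in MHHES1, 98.5 TPM in A673, 73.3 TPM in RDES, 49.0 TPM in EW24, 44.3 TPM in TC71 and 38.1 TPM in SKES1. The osteosarcoma lines ran from 1.52 TPM in G292 to 10.5 TPM in MG63. Every Ewing sarcoma library lay above every osteosarcoma library, and the closest line means were 3.64-fold apart. IL1RAP averaged 80.3 ± 39.4 TPM (SD, n = 7) and 6.36 ± 3.98 TPM (SD, n = 6), a difference of 3.56 in mean log2(TPM + 1). Replicate 3 of TC71 stood apart from the other TC71 libraries, at 19.1 TPM against 56.4 and 57.4 TPM. The same library was low for STEAP2 (16.9 against 44.1 and 51.7 TPM) and PTGER3 (33.8 against 68.4 and 71.7 TPM), while its median gene lay 0.20 below the TC71 mean in log2(TPM + 1).

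IL1RAP also has a short form, in which the seventh coding exon is read through to an early stop. It encodes the secreted receptor of 356 residues, without the membrane span and the intracellular TIR domain of the 570-residue and 687-residue forms. The end of the short coding sequence and the matching stretch of the long one are shown because reads over this junction tell membrane-bound from secreted IL1RAP. The shared 30 bases (chr3:190629469-190629498, GRCh38, plus strand) are in lower case, and capitals mark the 20 bases that differ, ending in the stop codon TGA in the short form.
IL1RAP short: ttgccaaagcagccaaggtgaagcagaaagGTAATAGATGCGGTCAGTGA
IL1RAP long: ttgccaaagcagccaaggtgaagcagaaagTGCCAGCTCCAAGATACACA

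The short form, summed over NM_134470.4 and NM_001167930.2, made up 5.73 to 21.9% of the IL1RAP TPM in the Ewing sarcoma lines, lowest in EW3 and highest in TC71. The place of TC71 rested on replicate 3, at 27.4% against 20.7 and 17.6%, since A673 had a mean of 21.2% and MHHES1 20.8%. In the osteosarcoma lines the short form made up 34.8 to 56.1%, lowest in HOS-MNNG and highest in SAOS2. Of 18 IL1RAP transcripts in the tables, 6 were assigned to the short or the long form, and the other 12 held 10.2 to 24% of the IL1RAP TPM of an osteosarcoma line but 4.04 to 8.77% for Ewing sarcoma. Of the assigned TPM alone, the short form made up 38.9 to 64.4% and 5.97 to 23% in that order. The long form was 33.02 to 121 TPM in the Ewing sarcoma lines and 0.507 to 5.68 TPM in the osteosarcoma lines, where 316 to 1552 estimated counts per line stood behind IL1RAP. In A673 the short form made up 21.4, 20.9 and 21.2% of the 3 parental libraries. In the uninduced sh908 libraries it made up 34.7, 37.1 and 34.7%, and in the induced ones 33.9, 32.6 and 35.2%. The sh908 libraries all lay above the parental ones, with a difference of 14.3 percentage points between uninduced and parental means (2-sided exact permutation test, p = 0.1, the smallest that 3 against 3 allows). Shares of the IL1RAP estimated counts were lower and also separated these groups: 2.48 to 10.5% in the Ewing sarcoma lines, 17.4 to 33.9% in the osteosarcoma lines, and 10.04% in parental against 18.7% in uninduced A673 cells. Doxycycline gave a difference of -1.59 points in the TPM share, with overlapping libraries (unpaired 2-sided exact permutation test, p = 0.3). Fragments differed in these libraries too: the gap between a transcript's length and its effective length was 180 to 190 bases in parental A673 and 140 to 169 bases in the sh908 libraries, and its part in the share of the short form was not tested.

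**Figure D2:**
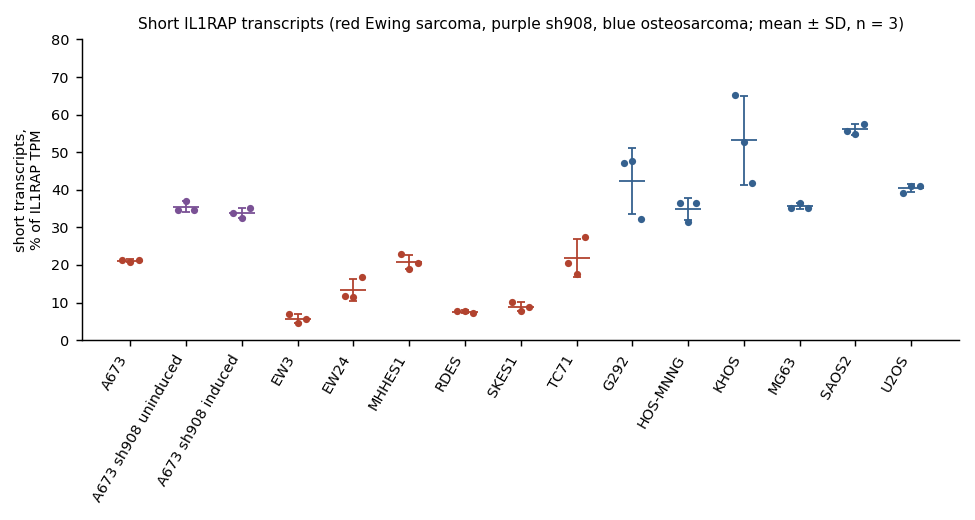
Share of the IL1RAP TPM held by the short, secreted-receptor transcripts, in percent, in 3 libraries (points) of each group, with the mean and SD (n = 3). Parental A673 sits at 21.2%, both sh908 groups at 33.9 to 35.5%, and the osteosarcoma lines at 34.8 to 56.1%, above all Ewing sarcoma lines.

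ADGRG2 and ADGRA1 are adhesion G protein-coupled receptors, a family with long extracellular regions. ADGRG2, known best from the efferent ducts of the male reproductive tract, varied most of the 9 genes. Its Ewing sarcoma line means were 204 TPM in EW3, 102 TPM in RDES, 49.2 TPM in A673 and 30.1 TPM in TC71, then 5.95 TPM in MHHES1, 2.98 TPM in EW24 and 1.60 TPM in SKES1. The highest line was 127-fold above the lowest, and the SD of log2(TPM + 1) over the 7 lines, 2.43, was larger than for 99.2% of 11210 genes with a mean of at least 5 TPM in these lines. Among the osteosarcoma lines G292 measured 2.19 TPM, above SKES1, and the other 5 lay at 0.411 TPM or less. The libraries of SKES1 (1.34, 1.45 and 2.01 TPM) overlapped those of G292 (1.99, 2.27 and 2.30 TPM).

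ADGRA1, a family member with a shortened extracellular region, had line means of 28.3 TPM in RDES, 24.7 TPM in SKES1, 17.7 TPM in EW3, 13.2 TPM in EW24, 11.9 TPM in MHHES1, 7.12 TPM in TC71 and 2.20 TPM in A673. Only 1 count fell on it in the 18 osteosarcoma libraries, in U2OS, and the other 17 libraries were at 0, where 3 counts would be worth 0.0343 to 0.0937 TPM. A673 was the low end of the Ewing sarcoma lines for ADGRA1 and SKES1 the low end for ADGRG2, so the pair of receptors did not rank the lines alike (Pearson's r of log2(TPM + 1) -0.11 over 7 lines).

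LINGO1, a leucine-rich repeat protein of neurons and a co-receptor in the Nogo receptor complex, had line means of 235 TPM in EW3 and 123 TPM in A673. The other 5 Ewing sarcoma lines lay between 61.8 TPM (TC71) and 96.7 TPM (RDES). U2OS, at 3.04 TPM, and MG63, at 3.01 TPM, were the highest osteosarcoma lines and the other 4 stood at 0.542 TPM or less. The lowest Ewing sarcoma mean was 20.3-fold above the highest osteosarcoma mean. LINGO1 averaged 103 ± 62.0 TPM (SD, n = 7) and 1.15 ± 1.46 TPM (SD, n = 6).

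PTGER3, the EP3 receptor for prostaglandin E2, had line means of 200.3 TPM in MHHES1, 188 TPM in EW24, 152 TPM in SKES1, 111 TPM in RDES, 97.4 TPM in A673, 62.7 TPM in EW3 and 58.0 TPM in TC71. The osteosarcoma lines measured at most 0.343 TPM, in G292, and 203 estimated counts fell on it in all 18 libraries. The lowest Ewing sarcoma mean was 169-fold above the highest osteosarcoma mean. EP3 has several carboxyl-terminal splice forms. In the Ewing sarcoma lines NM_198715.3 held 43.9 ± 11.1% and NM_198719.2 held 37.1 ± 5.39% of the PTGER3 TPM (SD, n = 7). In TPM their order turned between lines: NM_198719.2 led in A673 (45.6 against 29.7%) and TC71 (43.6 against 27.4%), and NM_198715.3 led in the other 5. By share of the PTGER3 estimated counts, which are not scaled for length, NM_198715.3 led in all 7, also in A673 (61.5 against 27.1%) and TC71 (57.2 against 27.1%).

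ITM2A, a type II membrane protein with a BRICHOS domain, had line means of 930 TPM in RDES, 587 TPM in TC71, 581 TPM in A673, 427 TPM in EW3, 424 TPM in EW24, 375 TPM in MHHES1 and 136 TPM in SKES1. In EW24 it exceeded CD99 (290 TPM). The osteosarcoma lines held 38 counts of ITM2A in all, of which 32 were in U2OS (0.250, 0.529 and 0.671 TPM), and 12 of 18 libraries were at 0, where 3 counts would be worth 0.0903 to 0.245 TPM. The lowest Ewing sarcoma mean was 282-fold above U2OS. NM_004867.5 carried 97.8 ± 0.404% (SD, n = 7) of ITM2A TPM among Ewing sarcoma lines.

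The 9 genes did not rise and fall together among the Ewing sarcoma lines. Of 36 pairs, Pearson's r of log2(TPM + 1) over the 7 line means was positive in 15 and negative in 21, from -0.77 for ADGRG2 with PTGER3 to 0.83 for CD99 with ADGRG2. These are descriptions over 7 points whose TPM values share a fixed total. EW3 was highest for IL1RAP, ADGRG2 and LINGO1, RDES for ADGRA1 and ITM2A, MHHES1 for STEAP2 and PTGER3, TC71 for STEAP1 and A673 for CD99. SKES1 was lowest for IL1RAP, ADGRG2 and ITM2A. By library the highest line overlapped the next for CD99, STEAP1, IL1RAP and PTGER3, and SKES1 overlapped TC71 for IL1RAP. On log2(TPM + 1), STEAP2 was the most even gene (SD 0.44 over 7 lines, against a median SD of 0.45 over the 11210 genes), followed by STEAP1 (0.60) and LINGO1 (0.69).

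The genes most like a member over the 7 lines were found among 11209 others with a mean of at least 5 TPM. NPC1, the late endosomal cholesterol transporter, was closest to CD99 (Pearson's r 0.99), and MRPS12, a mitochondrial ribosomal protein, to STEAP1 (0.98). LIN37 was closest to STEAP2 (0.95), CSGALNACT2, an enzyme of chondroitin sulfate synthesis, to IL1RAP (0.99) and CFAP300 to ADGRG2 (0.97). FRZB, a secreted Wnt antagonist, was closest to LINGO1 (0.99), FBXO34 to PTGER3 (0.95), ZNF485 to ITM2A (0.97) and the pseudogene SLC71A3P to ADGRA1 (0.99). With 7 points such values are common: between 18 and 77 genes exceeded 0.9 for each member, and no member was the closest match of another.

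Relatives of the 9 genes, in 8 lists of 101 genes, were tested between the tumour types with edgeR's quasi-likelihood test on line sums, with Benjamini-Hochberg adjustment over all genes (false discovery rate, FDR) and a call at an FDR under 0.05. HOS-MNNG and KHOS, which both descend from HOS, entered this test as separate samples. Of 80 relatives tested, 10 had higher and 12 had lower levels in the Ewing sarcoma lines, which is 27.5% against 14.4% of all 21945 genes. The lists were chosen with earlier results of these data known, so nothing is read from that share, and the calls below are descriptions. In the CD99 family 1 of 2 was higher: XG, a blood group antigen gene beside CD99, at 26.8 ± 26.5 TPM (SD, n = 7) against 0.0601 ± 0.0920 TPM (SD, n = 6). XG was uneven among the Ewing sarcoma lines, at 0.564 TPM in EW24, 1.18 TPM in A673 and 63.8 TPM in EW3. None of 3 other STEAP genes was called (3 tested, median log2 fold change -0.72).

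The IL-1 receptor family and its signalling genes had 0 of 11 tested higher and 3 lower. IL1R1, the signalling receptor that pairs with IL1RAP for interleukin-1, measured 0.262 ± 0.504 TPM (SD, n = 7) in the Ewing sarcoma lines and 15.9 ± 27.9 TPM (SD, n = 6) in the osteosarcoma lines (log2 fold change -6.30, SE 1.37, edgeR FDR 0.0091). Every Ewing sarcoma line except RDES, at 1.40 TPM, was at 0.209 TPM or less. G292 carried most of the osteosarcoma mean, with 72.3 TPM of IL1R1 against 0.661 TPM in HOS-MNNG, below RDES, and 2.06 to 10.6 TPM in the other 4, whose mean together with HOS-MNNG was 4.60 TPM. The call held with each line left out in turn (highest edgeR FDR 0.020). IL18, a cytokine of the same family, was lower as well (-8.14, SE 1.72, edgeR FDR 0.0078), at 0.238 ± 0.136 TPM (SD, n = 7) against 72.0 ± 155 TPM (SD, n = 6). U2OS held 386 TPM of IL18, MG63 39.1 TPM and HOS-MNNG 5.44 TPM. KHOS (0.540 TPM), SAOS2 (0.382 TPM) and G292 (0.254 TPM) were near the Ewing sarcoma lines, of which EW24 reached 0.464 TPM. This call also held without each line in turn (highest edgeR FDR 0.019). IL1RAPL1 was the third. IL1RAP RNA was thus measured in all 7 Ewing sarcoma lines beside little IL1R1 RNA.

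Among other adhesion G protein-coupled receptors, 4 of 22 tested were higher and 3 lower. ADGRB3, a brain receptor, measured 3.39 ± 1.18 TPM (SD, n = 7) against 0.144 ± 0.121 TPM (SD, n = 6), and CELSR2 16.6 ± 7.07 against 3.46 ± 4.19 TPM. For CELSR2, U2OS held 11.9 TPM, and the osteosarcoma mean without it was 1.77 TPM. Of the 7 Ewing sarcoma lines, 4 lay above U2OS. ADGRG1 measured 0.673 ± 0.680 TPM (SD, n = 7) against 38.6 ± 54.0 TPM (SD, n = 6), of which G292 held 148 TPM. ADGRL2 was lower by a log2 fold change of -5.24 (SE 1.49, edgeR FDR 0.033), a call made in only 6 of 13 fits with a line left out, with a highest edgeR FDR of 0.064. In the list of LINGO relatives and the Nogo receptor complex, 0 of 8 tested were called higher and 2 lower: TNFRSF19, a co-receptor that can stand in for p75 (log2 fold change -5.95, SE 1.25, edgeR FDR 0.0077), and RTN4, which encodes Nogo itself (-1.41, SE 0.22, edgeR FDR 0.0016). The median log2 fold change of the 8 was 1.12, toward higher levels in the Ewing sarcoma lines. RTN4 was still abundant in Ewing sarcoma lines, at 199 ± 50.5 TPM (SD, n = 7).

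Of the prostaglandin receptor and synthesis genes, 1 of 14 tested was higher and 3 were lower. PTGER2, the EP2 receptor for the same ligand as EP3, measured 0.0166 ± 0.0238 TPM (SD, n = 7) in the Ewing sarcoma lines and 18.5 ± 39.7 TPM (SD, n = 6) in the osteosarcoma lines, of which G292 held 99.4 TPM. SLCO2A1, the prostaglandin transporter, was lower as well (log2 fold change -7.35, SE 1.17, edgeR FDR 0.0016). PTGES3, a co-chaperone also described as a prostaglandin E synthase, was higher by 0.76 (SE 0.20, edgeR FDR 0.023). ITM2 family and BRICHOS genes had 0 of 4 tested called.

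Of 16 other surface protein genes, 4 were higher and 1 lower. NPY1R, a neuropeptide Y receptor, averaged 92.3 ± 96.1 TPM (SD, n = 7) and 0.387 ± 0.469 TPM (SD, n = 6), and SLCO5A1, an orphan transporter, 38.8 ± 20.4 and 0.273 ± 0.343 TPM. EGFR averaged 0.605 ± 0.848 TPM in the Ewing sarcoma lines and 22.3 ± 12.6 TPM in the osteosarcoma lines (log2 fold change -5.41, SE 1.11, edgeR FDR 0.0065).

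**Figure D3:**
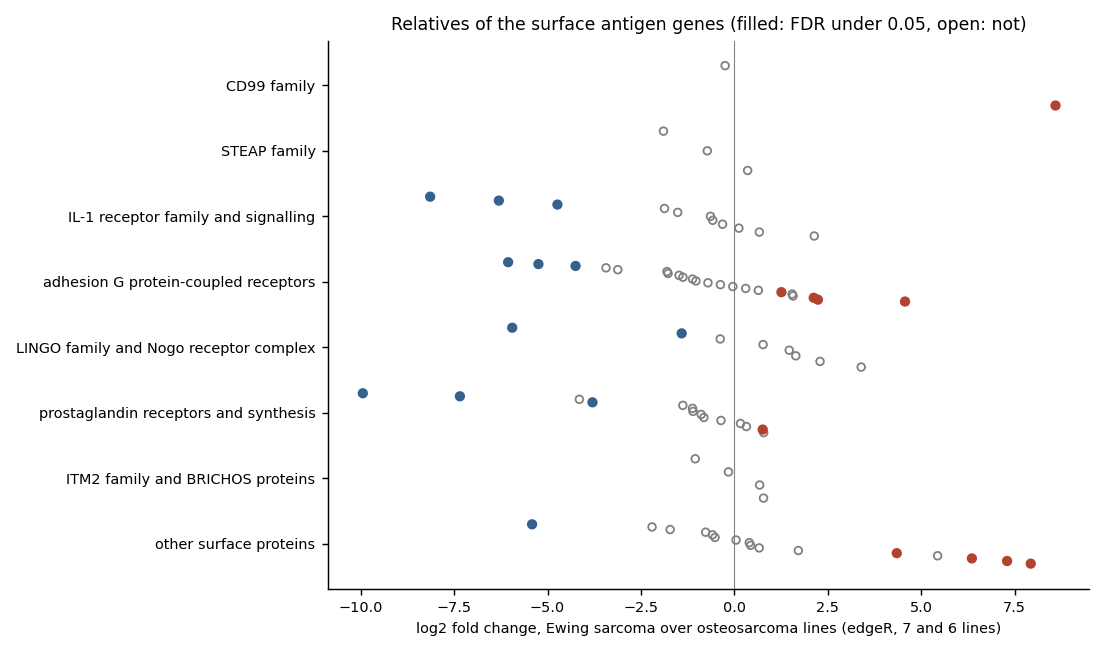
Log2 fold change of each tested relative between 7 Ewing sarcoma and 6 osteosarcoma lines, by list, from edgeR on line sums. Filled points passed an FDR of 0.05 (10 higher in red, 12 lower in blue), and open points did not.

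For the sh908 cells the scale of the values matters. In these libraries MIR12136 and SNORA109, which are very short targets, held 6.24 to 12.2% of the TPM, against 2.78 to 3.65% in parental A673. The median of 9986 genes lay 0.14 to 0.60 below parental cells in log2(TPM + 1), lowest in replicates 1 and 2. Levels below are therefore CPM, counts scaled for library size, with library sizes adjusted by trimmed means of M values (TMM), on which the median gene stayed within 0.11 of the parental mean. STEAP1 is the member whose direction against parental cells turned with the scale, at 1.09-fold of parental by TMM-scaled counts and 0.801-fold by TPM.

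KCNN1, the target of the hairpin, measured 117, 111 and 36.8 TMM-scaled CPM in the uninduced replicates 1, 2 and 3 and 33.6, 42.3 and 16.8 in the induced ones. It was lower with doxycycline in 3 of 3 pairs, with a log2 fold change of -1.53 (SE 0.52, edgeR FDR 0.99997, unadjusted p = 0.023), and of -1.46 (SE 0.13, edgeR FDR 0.0013) with the replicate number as a block. Replicate 3 of both sh908 groups stood apart from replicates 1 and 2 on the leading principal component, which held 63.4% of the variance of the 6 libraries. Same-numbered libraries deviated from their group means together (correlations 0.46, 0.40 and 0.77), which met the criterion for pairing, so the blocked values are given as well. Replicates 1 and 2 were hardly told apart by this check, since uninduced 1 with induced 2 gave 0.42 and uninduced 2 with induced 1 gave 0.35, while replicate 3 with either was at -0.52 or lower.

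With doxycycline, 0 of 9 members were called in either fit, where 0% and 0.512% of 14250 genes were called (94 genes had an unadjusted p under 0.05 without the block). STEAP2 measured 25.7, 19.2 and 67.7 TMM-scaled CPM uninduced and 45.01, 27.3 and 68.4 induced, higher in 3 of 3 pairs, by 1.75-fold, 1.42-fold and 1.01-fold. The direction of pair 3 depends on the scale, since STEAP2 was at 26.5 TPM uninduced and 21.7 TPM induced there. Its blocked log2 fold change was 0.41 (SE 0.15, edgeR FDR 0.28), and 0.65 (edgeR FDR 0.0498) when replicate 3 was left out of both groups. ADGRG2 measured 61.0, 62.3 and 143 uninduced and 47.9, 53.5 and 123 induced, lower in 3 of 3 pairs, with a blocked log2 fold change of -0.27 (SE 0.09, edgeR FDR 0.24). IL1RAP measured 165, 166 and 157 uninduced and 178, 168 and 179 induced, a ratio of 1.07 with groups that did not overlap, as in 4.03% of 14250 genes (blocked log2 fold change 0.09, SE 0.09, edgeR FDR 0.70). Its long form was at 119 ± 2.89 TMM-scaled CPM uninduced and 130.4 ± 2.30 induced (SD, n = 3), again without overlap (2-sided exact permutation test, p = 0.1, the smallest possible), and its short form overlapped (30.4 ± 2.29 and 30.9 ± 2.48, p = 0.9, same exact test). These exact tests did not pair the replicates. By TPM the libraries overlapped for both forms and for IL1RAP as a whole.

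The blocked fit also gives the precision of each difference with doxycycline. For CD99 the estimate plus and minus 2 SE ran from -0.21 to 0.20, for IL1RAP from -0.09 to 0.27 and for PTGER3 from -0.19 to 0.18 on the log2 scale. The widest were ADGRA1, from -0.11 to 0.61, and ITM2A, from -0.27 to 0.45. Of 56 relatives tested, 0 were called without the block and 1 with it: STEAP3, a metalloreductase of the transferrin cycle, was higher by 0.65 (SE 0.11, edgeR FDR 0.041). Leaving out pair 1 or pair 2 left 0 relatives called in the blocked fit, and leaving out pair 3 left 2.

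Uninduced sh908 cells were also set against parental A673, which asks at what level the hairpin cells started. This comparison shares the uninduced libraries with the one for doxycycline, and replicate numbers did not pair these groups (correlations 0.033, 0.042 and 0.142). Of the 9 members 1 was called, against 15.1% of 15776 genes: IL1RAP, at 238, 222 and 222 TMM-scaled CPM in parental and 165, 166 and 157 in uninduced cells (log2 fold change -0.46, SE 0.12, edgeR FDR 0.0497). The decrease was seen in all 3 uninduced libraries, replicate 3 included, but the FDR sits at the threshold: it was 0.14 with the replicate block, where 0 members and 2.02% of genes were called, and 11 of 15 alternative fits did not call it. By form, the long transcripts were at 186 ± 4.37 TMM-scaled CPM in parental and 119 ± 2.89 in uninduced cells (SD, n = 3) and the short ones at 22.8 ± 1.19 and 30.4 ± 2.29 (2-sided exact permutation tests, p = 0.1 each, the smallest possible). In TPM the long form was again separate, at 70.1 in parental and 33.8 in uninduced cells (p = 0.1, same exact test). The difference in the short form depends on the scale, since it was at 20.9 TPM in parental and 20.8 TPM in uninduced cells, with overlapping libraries (p = 1, same exact test).

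CD99 and LINGO1 were at higher values in uninduced cells without being called. CD99 measured 1008, 899 and 918 TMM-scaled CPM in parental and 1395, 1646 and 1147 in uninduced cells (log2 fold change 0.58, SE 0.19, edgeR FDR 0.085), and LINGO1 220.2, 213 and 222 against 359, 378 and 264 (0.63, SE 0.18, edgeR FDR 0.056). Neither gene's groups overlapped on this scale, as in 42.4% of the 15776 genes, and by TPM their ratios were 1.061 and 1.121. DESeq2 called both, with adjusted p of 0.010 for CD99 and 0.0070 for LINGO1, but it also called more genes in all than edgeR did, as given in the last section.

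For 4 members replicate 3 of the uninduced cells lay past 2-fold from replicates 1 and 2, as for 20.7% of 15776 genes. ITM2A measured 539, 471 and 445 TMM-scaled CPM in parental cells, 177 and 260.1 in uninduced replicates 1 and 2 and 683 in replicate 3. STEAP2 measured 89.0, 69.0 and 75.2 in parental cells, 25.7 and 19.2 in replicates 1 and 2 and 67.7 in replicate 3. ADGRG2 measured 147, 110 and 125 in parental cells, 61.0 and 62.3 in replicates 1 and 2 and 143 in replicate 3. In these 3 genes replicates 1 and 2 sat below every parental library. Replicate 3 was above the parental libraries for ITM2A, among them for ADGRG2 and 0.871-fold of their mean for STEAP2.

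ADGRA1 went the other way, at 3.73, 5.59 and 4.64 TMM-scaled CPM in parental cells, 12.8 and 12.8 in uninduced replicates 1 and 2 and 2.81 in replicate 3. None of the 4 was called with all libraries (edgeR FDR 0.64 for ITM2A, 0.17 for STEAP2, 0.36 for ADGRG2 and 0.24 for ADGRA1). Without replicate 3 of the uninduced cells all 4 were (log2 fold changes -1.13, -1.77, -1.03 and 1.48), but 10171 genes were called in that fit. With doxycycline replicate 3 lay past 2-fold from replicates 1 and 2 for 3 members, as for 20.8% of 14250 genes: ITM2A, at 283 and 231 in replicates 1 and 2 and 601 in replicate 3, ADGRG2 and ADGRA1. STEAP2 was not among them, with a log2 difference of 0.94. KCNN1 was lower in replicate 3 in both groups. What set replicate 3 apart was not tested.

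**Figure D4:**
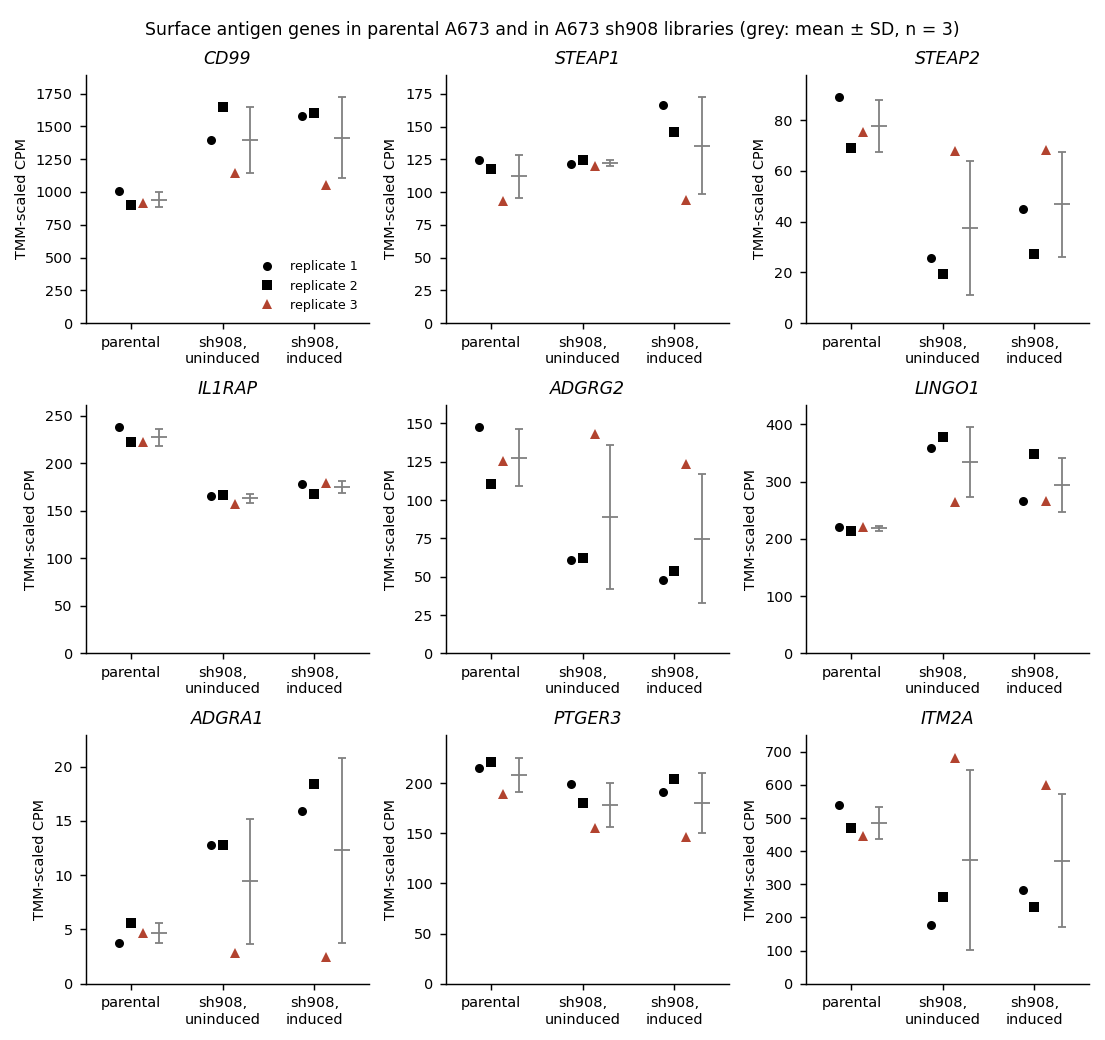
Each surface antigen gene in parental A673 and in uninduced and induced sh908 cells, in TMM-scaled CPM on linear axes from 0, with replicates 1 and 2 in black, replicate 3 in red and the mean and SD (n = 3) in grey. IL1RAP is lower in all 6 sh908 libraries than in parental cells, and STEAP2, ADGRG2 and ITM2A are lower in replicates 1 and 2 of the sh908 groups than in replicate 3.

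On TMM-scaled counts PTGER3 and STEAP1 were closest to the parental level. PTGER3 measured 215, 221 and 189 in parental and 199.6, 180.1 and 155 TMM-scaled CPM in uninduced cells (log2 fold change -0.21, SE 0.15, edgeR FDR 0.37), and STEAP1 125, 118 and 93.4 against 122, 125 and 119.7 (0.14, SE 0.14, edgeR FDR 0.52). In both genes the groups overlapped on this scale. By TPM the ratios of uninduced to parental means were 0.700 for PTGER3, whose groups then did not overlap, and 0.801 for STEAP1, farther from 1 than those of CD99 and LINGO1.

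Of 60 relatives tested between uninduced and parental cells, 4 were higher and 6 lower, 16.7% against 15.1% of all genes. ADGRL2 (log2 fold change 6.01), RTN4RL2, a Nogo receptor relative (1.77), CXCR4, a chemokine receptor (1.38), and SIGIRR, an inhibitory IL-1 receptor relative (1.15), were higher. PROM1, which encodes CD133 (-2.90), MCAM, an adhesion molecule (-2.04), and KIT, a receptor tyrosine kinase (-1.86), were among the lower ones. STEAP4 was called lower with 53.3 estimated counts in the 3 parental and 0 in the 3 uninduced libraries. With the replicate block 5 relatives were called, and leaving out any single parental library left 0.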

How the data were processed

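The members and the lists of relatives were chosen with earlier results of these data known. Per the labels' protocols, libraries were made with a stranded mRNA kit. The submitters' processing notes name fastp 0.19.5 and kallisto 0.46.2 and the builds hg38 and GRCh38.p14. Per the file headers, each deposited table gives the authors' estimated counts (expected counts, not scaled for depth), TPM and effective length for 177816 RefSeq transcripts. The other value used, effective length in bases, is also the authors' and served as an offset and a check. Both were summed per gene through RefSeq, which matched 169960 transcripts (95.6%), and the unmatched ones held 0.926 to 1.6% of counts. How reads shared between transcripts were split is the authors' estimate.

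Counts were rounded, filtered with filterByExpr, scaled by TMM and fitted with edgeR's quasi-likelihood model (robust), with Benjamini-Hochberg adjustment over all genes and calls at an FDR under 0.05. The tumour types were compared on sums of the 3 libraries of a line, so lines were the samples. Replicate numbers were taken to pair groups where every same-number correlation was over 0.1. Log2 TPM used a pseudocount of 1 TPM. A transcript share needed 30 counts of its gene in a library.

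The 9 members and KCNN1 were always named. Relatives were named when called with doxycycline, up to the 8 largest calls against parental cells, and up to 2 rises and 2 falls per list between tumour types. IL1RAPL1 was named besides. Genes most like a member were ranked by Pearson's r over the Ewing sarcoma lines.

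The unblocked edgeR fits for doxycycline and for the tumour types were tested on simulated counts. The simulated counts held no shift of replicate 3. Versions were R 4.3.3, edgeR 4.0.16, DESeq2 1.42.0, Python 3.11.15, pandas 2.3.3, scipy 1.17.1 and matplotlib 3.10.9. Scaling by TMM for the levels in A673 libraries, the blocked fits without a replicate pair and the count share of short IL1RAP transcripts were added after the data were seen. The limits given for counts of 0 cover counting error only, whereas the intervals of plus and minus 2 SE come from the spread between libraries in the fit.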

Additional observations from a re-analysis of the deposited data

Results flagged for a closer look

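On the scale of log2(TPM + 1), of 18 groups of line means examined (9 genes in the Ewing sarcoma and the osteosarcoma lines), 3 had a line whose gap to its nearest neighbour took more of the group's range than Dixon's 95% value allows, 0.625 for 6 lines. Chance gives such a gap in about 1 in 20 groups of normally distributed values, a rate that was not tested for these skewed levels. All 3 were in the osteosarcoma lines and at low levels. On TPM itself 5 groups did: the same 3, STEAP1 in G292 (0.742 of the range) and LINGO1 in EW3 (0.644, with a Dixon value of 0.568 for 7 lines). ADGRG2 was at 2.19 TPM in G292, with 0.738 of the log2 range between it and the next line. ITM2A was at 0.483 TPM in U2OS, with 0.679 of the log2 range. ADGRA1 was at 0.00641 TPM in U2OS, which is the single count found in the osteosarcoma libraries. With the other 5 lines at 0, any count there takes the whole range, so ADGRA1 meets the criterion by construction and is not to be read against the chance rate.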

How the results depend on the processing

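With doxycycline, edgeR called 0 genes as fitted, 73 with the replicate block, 2 by DESeq2 and 12 with all 45 libraries in the fit. Blocked fits without pair 1, 2 or 3, chosen after seeing the data, called 10, 7 and 193. Against parental cells 2388 genes became 319 with the replicate block, 4169 by DESeq2, 7561 with all 45 libraries and 205, 329 and 8248 in blocked fits without pair 1, 2 or 3. Leaving out single libraries gave 2 to 10171: 4, 2 and 8 without parental replicates 1, 2 and 3, and 1394, 266 and 10171 without uninduced replicates 1, 2 and 3. Between tumour types 3153 genes became 5391 by DESeq2 and 2307 to 3174 without single lines, and 18 to 28 relatives were called.

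No member was called with doxycycline except STEAP2 in the blocked fit without replicate 3 of both groups. Directions near 0 turned. With the replicate block CD99 was at -0.0057, PTGER3 at -0.0043 and ITM2A at 0.090 (log2). Blocked and without pair 1, CD99 was at -0.087 and STEAP1 at -0.071; without pair 2, PTGER3 was at -0.085 and ITM2A at 0.23; without pair 3, ITM2A was at 0.24. Leaving out single sh908 libraries gave -0.11 to 0.17 for CD99, -0.034 to 0.33 for STEAP1, -0.094 to 1.07 for STEAP2, -0.84 to 0.29 for ADGRG2, -0.073 to 0.85 for ADGRA1, -0.10 to 0.12 for PTGER3 and -0.57 to 0.77 for ITM2A. These extremes came without a replicate 3, except the lowest values of STEAP1 and PTGER3. The cause was not tested.

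Every member kept its direction against parental cells in the edgeR and DESeq2 fits. The PTGER3 transcript share depends on the unit, since the leading transcript held 72.9% of estimated counts on average but 43.9% of TPM. So does the share of the short IL1RAP form, whose TPM share was 1.65 to 2.31 times its count share, though the tumour types did not overlap on either. By TMM-scaled counts, 0 to 7 of the 13 lines changed place in the order for a member. Low levels in the osteosarcoma lines limit 5 log2 differences, which grow as the pseudocount falls from 1 to 0.01 TPM: ADGRG2 from 3.97 to 6.32, LINGO1 from 5.69 to 7.71, ADGRA1 from 3.71 to 10.08, PTGER3 from 6.68 to 10.94 and ITM2A from 8.64 to 13.58. Of the 22 relatives called between tumour types, 5 lost the call without at least 1 line.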
